A study of Mus musculus with 2 samples.

Results

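The fast skeletal muscle genes described here are Myh1, Myh4, Myl1, Mylpf, Acta1, Tnnt3, Tnni2, Actn3, Ckm and Pvalb. They were chosen by name, as genes of the contractile machinery of fast muscle fibres and of its energy and calcium supply. Earlier results of these data were known when they were chosen. All 10 had a row, among 31784 gene rows, on 2 two-colour Agilent microarrays that compared pituitary RNA of Brdt-/- mice with that of wild-type mice. The Brdt-/- mice were homozygous for the knockout-first allele tm1a, in which a lacZ trapping cassette and a neo selection cassette sit in the fourth intron of Brdt, a bromodomain gene with a known role in spermatogenesis. No such cassette is given for the wild-type mice. Mice of both genotypes were 8 weeks old and had a C57BL/6 background. The labels give the wild-type pools as male and give no sex for the Brdt-/- pools. There were 2 pools of RNA per genotype, each from 3 mice, and each array set 1 Brdt-/- pool against 1 wild-type pool. The Brdt-/- pool carried Cy5 on array 1 and Cy3 on array 2.

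Skeletal muscle contracts when myosin heads of the thick filament pull on actin of the thin filament, and troponin makes that pull depend on calcium. Z discs anchor the thin filaments at both ends of each sarcomere. Fast fibres use their own isoforms of most of these proteins, and they hold much creatine kinase to renew ATP and much parvalbumin to take up calcium. The pituitary is a gland and has no sarcomeres of its own, so these genes are not among those that define it. Parvalbumin is also made outside muscle, by a class of inhibitory neurons.

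Values below are log2 ratios, Brdt-/- over wild type, and array 1 always precedes array 2. No label states which channel was divided by which. Each column was taken to be Cy5 divided by Cy3, which puts the Brdt-/- pool on top on array 1 and underneath on array 2, so the sign of array 2 was changed. The basis is that the 10 E1A spike-in rows did not change sign between the deposited columns, together with the usual convention. The direction is therefore likely and not settled, with every sign inverted if both columns run the other way. With array 2 turned, the Pearson correlation of the 2 arrays over all gene rows was -0.26. In the orientation used, the arrays thus tended to differ in direction across the whole table. Means with array 2 left as deposited are given for the 10 genes and the myosin heavy chain cluster. Medians in that orientation are given for the pooled striated muscle lists and for the cardiac, cartilage and bone, and red blood cell genes. A ratio carries no level, so these data do not show how much of any muscle transcript the glands held, or whether its probe was above background. In pooled tissue, fewer cells of a type and less RNA per cell cannot be told apart. The central 95% of all gene rows lay between -0.96 and 1.10 on array 1 and between -0.89 and 0.68 on array 2, with medians of -0.03 and 0.03. Brdt itself was at -0.30 and -0.43, and at a mean of 0.07 with array 2 not turned. The labels do not place its probe relative to the cassettes, so this value does not check the genotypes. A ratio of pituitary or muscle genes does not check the labelled tissue either.

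The 10 genes did not shift together between the genotypes. Ckm, the creatine kinase of muscle, had the lowest mean ratio, on average 2.28-fold lower in Brdt-/- pools than in wild-type pools (mean log2 ratio -1.19 ± 0.34, SD, n = 2), though it did not pass the adjusted test. The structural genes of the sarcomere did not show that pattern: skeletal actin and the fast troponin I gene lay close to 0 on both arrays, the heavy chain gene Myh4 was slightly above 0 on both, and the others differed in sign between the arrays. Of the 10 genes, 3 (Ckm, Pvalb and Tnni2) were below 0 on both arrays, 2 (Myh4 and Acta1) were above 0 on both, and 5 had opposite signs. Across all gene rows, 19.5% were below 0 on both arrays and 21.6% were above 0 on both, so both counts lie near the background. In limma's test of each mean ratio against 0, with Benjamini-Hochberg adjustment over all gene rows, 0 of the 10 genes passed the threshold of 0.05, as did 0% of all rows (0 of 31784). At limma's unadjusted p under 0.05, 1 of the 10 passed (Ckm), beside 2.21% of all rows.

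**Figure D1:**
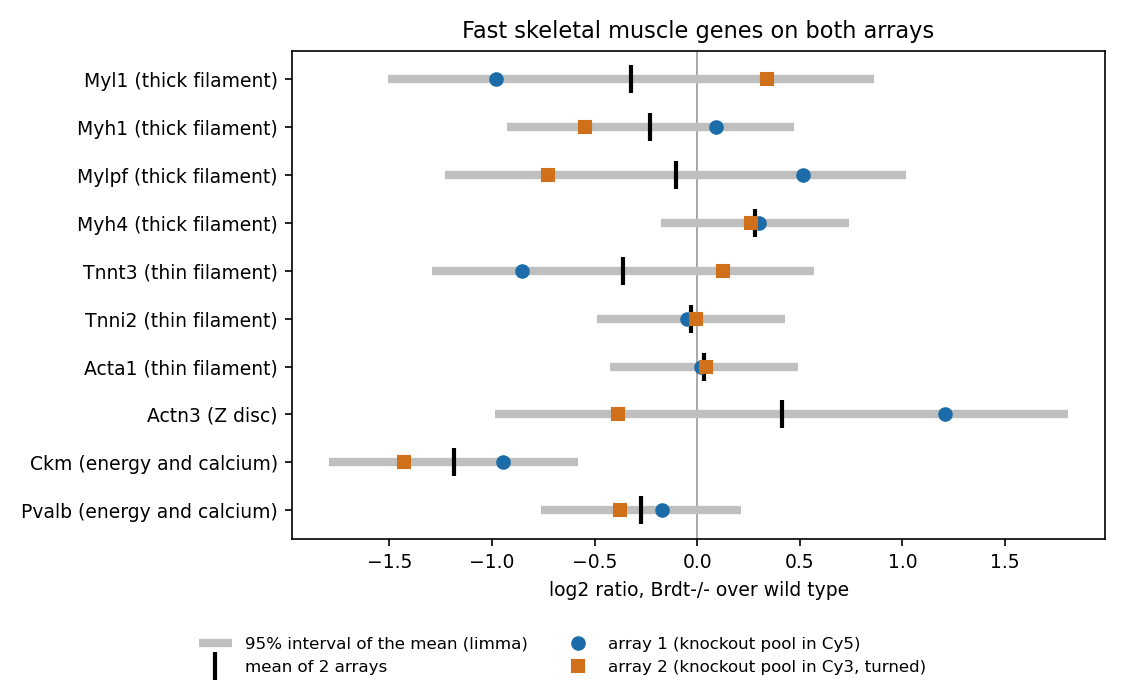
Log2 ratio of Brdt-/- over wild type (horizontal axis) for each of the 10 genes, grouped by role, with circles for array 1, squares for array 2, a tick for the mean and a grey bar for limma's 95% interval of the mean. The interval excludes 0 for Ckm, before any adjustment for the number of genes, and includes it for the other 9.

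Promoter sequences were matched by symbol in RefSeq's table for build GRCm38.p6. They are shown for Ckm because its mean ratio was the lowest, and for the neighbouring genes Myh1 and Myh4 because their values differed. Each run holds the 250 bases before the transcript start, 5′ to 3′ on the gene's own strand. Capitals mark matches on either strand to the E-box (CANNTG, bound by myogenic factors such as MyoD), the MEF2 motif and the CArG box of serum response factor.
Ckm, chr7:19410844-19411093, plus strand: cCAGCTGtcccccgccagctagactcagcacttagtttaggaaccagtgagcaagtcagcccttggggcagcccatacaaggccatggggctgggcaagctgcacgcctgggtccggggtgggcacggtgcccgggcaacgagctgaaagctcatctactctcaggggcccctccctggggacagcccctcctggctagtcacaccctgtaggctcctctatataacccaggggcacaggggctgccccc
Myh1, chr11:67199852-67200101, plus strand: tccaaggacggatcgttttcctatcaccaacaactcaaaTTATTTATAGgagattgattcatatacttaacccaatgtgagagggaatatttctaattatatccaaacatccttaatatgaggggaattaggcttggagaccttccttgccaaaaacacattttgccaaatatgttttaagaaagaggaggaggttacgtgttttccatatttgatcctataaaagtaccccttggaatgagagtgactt
Myh4, chr11:67237562-67237811, plus strand: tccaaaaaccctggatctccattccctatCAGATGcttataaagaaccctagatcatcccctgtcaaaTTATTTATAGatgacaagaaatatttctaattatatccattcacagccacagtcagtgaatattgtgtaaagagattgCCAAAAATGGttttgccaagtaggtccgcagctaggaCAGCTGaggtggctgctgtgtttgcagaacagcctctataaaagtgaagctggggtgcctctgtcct

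The Ckm window held 1 E-box, starting 249 bases before the transcript start, and no MEF2 or CArG match. The best known enhancer of Ckm lies farther upstream than this window. The Acta1 window held 2 E-boxes and 1 CArG box, with the CArG box starting 73 bases before the transcript start. The Myh1 and Myh4 windows each held the same MEF2 match, TTATTTATAG, starting 211 bases before the Myh1 transcript start and 182 bases before that of Myh4. Myh4 also had 2 E-boxes and 1 CArG box, while the Myh1 window had none of either. Base composition differed among these windows, from 36.0% G and C in Myh1 to 64.8% in Ckm.

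Of the 10 genes, 7 had a promoter in the table, and Pvalb had 2, which makes 8 windows; Tnnt3, Tnni2 and Actn3 had none there. An E-box was present in 6 of the 8 windows, against 66.2% of all 32851 promoter windows of the same length. A MEF2 match was present in 3 of the 8 (Myh1, Myh4 and the first start of Pvalb), against 2.92% of all windows. A CArG box was present in 2 of the 8 (Acta1 and Myh4), against 1.47%. The genes with a MEF2 match had mean ratios of -0.23, 0.28 and -0.27, so these means did not share a sign in the orientation used. With array 2 not turned they were 0.32, 0.02 and 0.10, all positive. Limma's interval did not exclude a ratio of no change for any of these genes, so no direction is settled for them. These matches describe the letters of the windows and were not set against binding data.

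**Figure D2:**
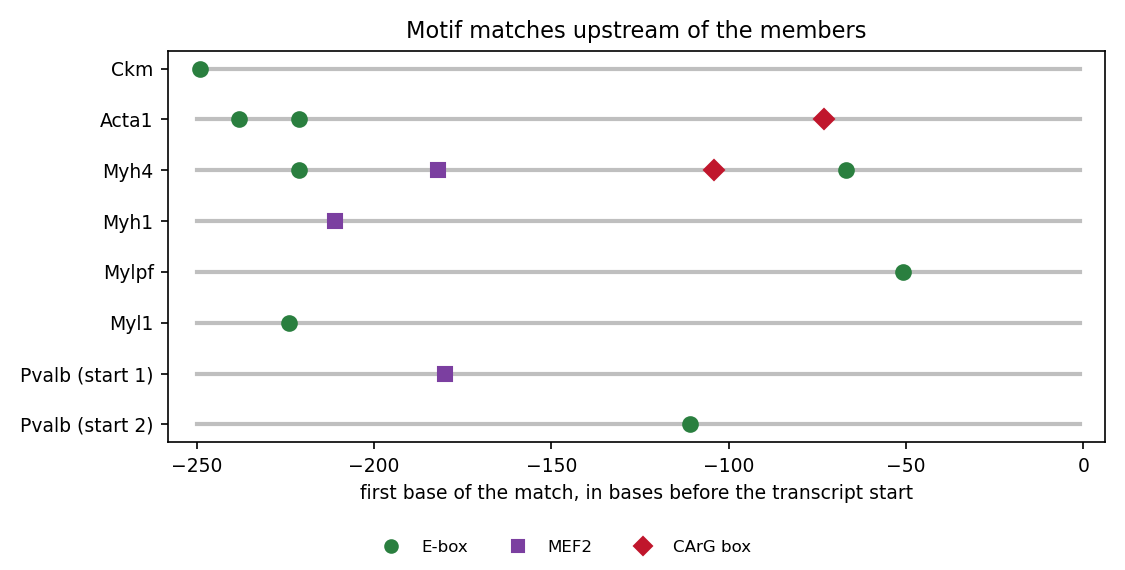
Positions of motif matches in the 250 bases before each transcript start (horizontal axis, bases before the start), 1 row per promoter window, with circles for E-boxes, squares for MEF2 and diamonds for CArG boxes. MEF2 matches lie in Myh1, Myh4 and the first start of Pvalb, and CArG boxes in Acta1 and Myh4.

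Ckm encodes the creatine kinase subunit that regenerates ATP beside the myofibrils. Its deposited signed folds were -1.93 on array 1 and 2.69 on array 2, opposite in sign as the Brdt-/- pool changed dye. Turned to Brdt-/- over wild type, the log2 ratios were -0.95 and -1.43, with a mean of -1.19 ± 0.34 (SD, n = 2). Both arrays were low for this gene, at the 2.58 percentile of all rows on array 1 and the 0.686 percentile on array 2. Limma gave a 95% interval of -1.79 to -0.58, an unadjusted p of 0.00722 and an adjusted p of 0.999995. The mean ranked 43rd lowest of 31784 rows. With 2 arrays the smallest two-sided p of an exact sign-flip permutation test is 0.5. Ckm was past 1.5-fold lower on both arrays, which 0.453% of all gene rows were, and none of the other 9 genes was. Past 1.5-fold higher on both arrays were 0 of the 10 genes and 0.359% of all rows. With array 2 not turned its mean was 0.24.

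Only 9 rows of the whole table lay below Ckm on both arrays. They were Nr4a2, Fosl2, Nr4a1, Mbl2, Gdnf, Egr4, Sik1, the pseudogene Rpl19-ps4 and a transcript with no gene name here, and none was in the muscle lists used here. Ckm was below the median of the other 9 genes by a log2 difference of -0.97 on array 1 and -1.42 on array 2. It was the lowest of the 10 on array 2, at -1.43 with Mylpf next at -0.73. On array 1 it was not, since Myl1 was lower at -0.98 and Tnnt3 was close at -0.85. Ckb, the brain-type creatine kinase that glands and neurons use, was at -0.03 and 0.10. The mitochondrial muscle form Ckmt2 was at -0.04 and -0.07. The low ratio of Ckm was thus not seen in its relatives, though the difference between these genes was not tested.

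Pvalb encodes parvalbumin, which binds calcium in the cytosol and speeds relaxation. Its deposited folds were -1.12 and 1.30. The log2 ratios were -0.17 and -0.37, with a mean of -0.27 ± 0.15 (SD, n = 2). Both arrays had the sign of Ckm at a smaller size, and limma's interval of -0.76 to 0.22 included 0. With array 2 not turned the mean was 0.10.

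**Figure D3:**
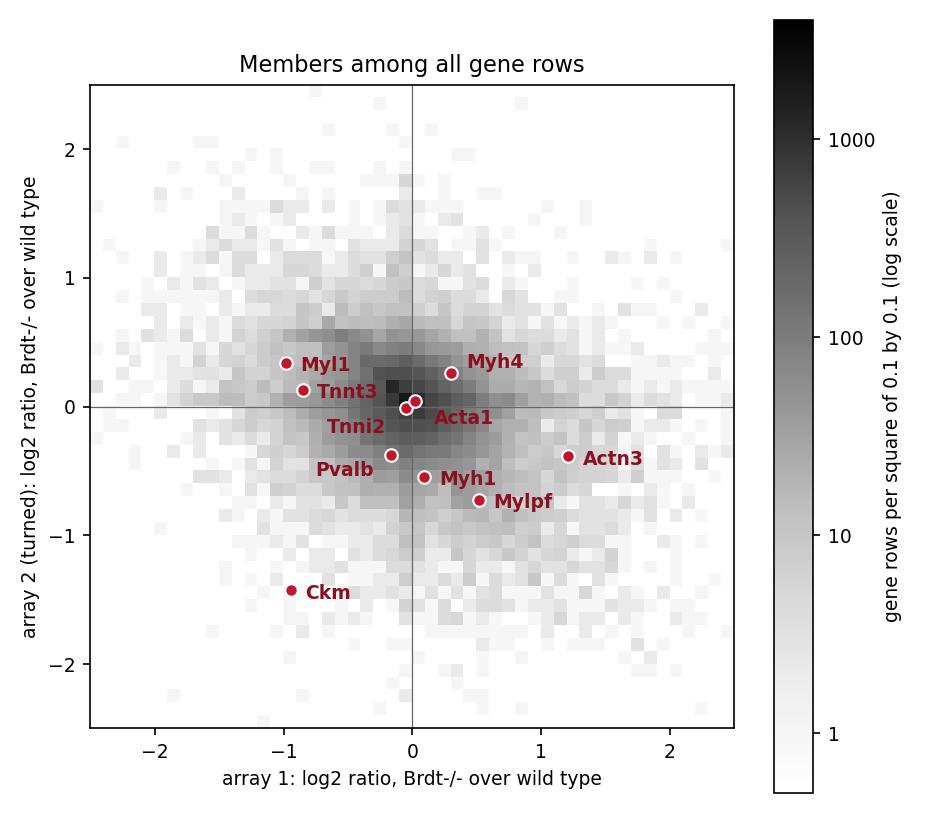
Log2 ratio of Brdt-/- over wild type on array 1 (horizontal axis) against array 2 (vertical axis), with grey squares shaded by the number of gene rows and the 10 muscle genes as red points. Ckm lies at the lower left, apart from the other 9 genes, Acta1 and Tnni2 lie at the centre, and Myl1, Tnnt3, Mylpf, Myh1 and Actn3 lie in the quadrants of opposite sign; 91 of 31784 rows fall outside the axes.

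Of the thin filament genes, Acta1 and Tnni2 were close to 0 and Tnnt3 differed between arrays. Acta1, the actin of the skeletal thin filament, had deposited folds of 1.01 and -1.03. Its log2 ratios were 0.02 and 0.04, with a mean of 0.03 ± 0.02 (SD, n = 2) and a limma interval of -0.43 to 0.49. Its mean was -0.01 with array 2 not turned. Tnni2, the fast inhibitory subunit of troponin, had deposited folds of -1.04 and 1.01 and log2 ratios of -0.05 and -0.01, and its mean was -0.02 with array 2 not turned. Both genes sat in the middle of all rows on both arrays, between the 41.4 and 59.0 percentile. Tnnt3, the fast subunit that ties troponin to tropomyosin, had deposited folds of -1.80 and -1.09. Its log2 ratios were -0.85 and 0.13, so array 1 was low and array 2 was not, and the mean was -0.36 ± 0.69 (SD, n = 2).

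Tnni2 and Tnnt3 lie close together on chromosome 7, with Lsp1, a leukocyte actin-binding protein gene, as the protein-coding gene between them in the reference annotation. Lsp1 was at 0.26 and 0.25. On array 1 Tnnt3 was below Tnni2 by a log2 difference of -0.80, and on array 2 it was above it by 0.14. Their order thus differed between the arrays in the orientation used. As deposited, array 2 had Tnnt3 at a log2 value of -0.13 and Tnni2 at 0.01, so Tnnt3 was below Tnni2 in both columns.

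Among the thick filament genes, the heavy chains differed from each other. Myh4, the heavy chain of the fastest fibres (type IIb), had deposited folds of 1.23 and -1.20. Its log2 ratios were 0.30 and 0.26, with a mean of 0.28 ± 0.03 (SD, n = 2), the closest match between arrays after Acta1 and slightly above 0 on both. Limma's interval was -0.17 to 0.74 and its unadjusted p was 0.149. The mean was 0.02 with array 2 not turned. Myh1, the heavy chain of type IIx fibres, had deposited folds of 1.07 and 1.46 and log2 ratios of 0.09 and -0.55. Its mean was -0.23 ± 0.45 (SD, n = 2) with a limma interval of -0.93 to 0.47, and 0.32 with array 2 not turned. In the orientation used, Myh4 was above Myh1 on both arrays, by a log2 difference of 0.21 and 0.81, and that difference was not tested. As deposited, array 2 had Myh4 at a log2 value of -0.26 and Myh1 at 0.55, the reverse order. These heavy chains are close paralogues, and no source used here says whether each probe tells them apart.

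The skeletal heavy chain genes form a cluster on chromosome 11 in the order Myh3, Myh2, Myh1, Myh4, Myh8 and Myh13. Myh2, the heavy chain of type IIa fibres, was at -0.77 and -0.23, below 0 on both arrays. Myh8, the perinatal form, was at 0.08 and 0.34, above 0 on both like Myh4. Myh3, the embryonic form, was at -0.13 and 0.09, and Myh13, the form of extraocular and laryngeal muscle, was at -0.31 and 0.35. Neighbours in the cluster thus lay on different sides of 0, and 0 of the 6 passed limma's adjusted threshold. With array 2 not turned, the means in chromosomal order were -0.11, -0.27, 0.32, 0.02, -0.13 and -0.33. The means of Myh1, Myh8 and Myh13 changed sign there, and neighbours again lay on different sides of 0.

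**Figure D4:**
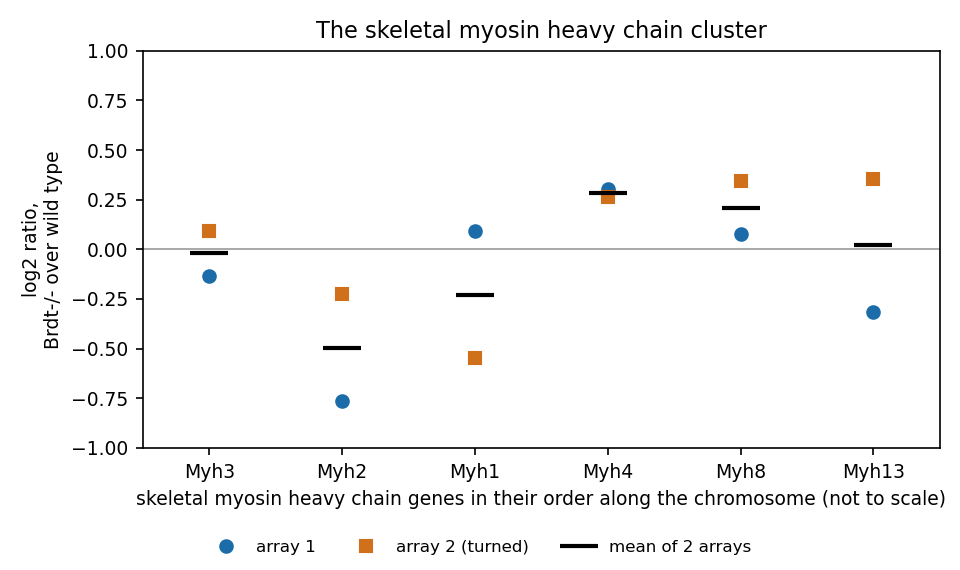
Log2 ratio of Brdt-/- over wild type (vertical axis) for the 6 skeletal myosin heavy chain genes in chromosomal order, with circles for array 1, squares for array 2 and a bar for the mean. With array 2 turned, Myh2 lies below 0 and Myh4 and Myh8 above 0 on both arrays, while Myh3, Myh1 and Myh13 have opposite signs.

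The fast light chains disagreed most between arrays within the thick filament. Myl1, the alkali light chain, had deposited folds of -1.98 and -1.27 and log2 ratios of -0.98 and 0.34. Mylpf, the regulatory light chain, had deposited folds of 1.43 and 1.65 and log2 ratios of 0.52 and -0.73. Their means were -0.32 ± 0.94 and -0.10 ± 0.88 (SD, n = 2 each), with spreads far larger than the means. In the orientation used, the order of the light chains also turned over. Myl1 was below Mylpf by a log2 difference of -1.50 on array 1 and above it by 1.07 on array 2. As deposited, array 2 had Myl1 at a log2 value of -0.34 and Mylpf at 0.73, so Myl1 was below Mylpf in both columns. Both partner the same heavy chains in fast fibres.

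Actn3, the alpha-actinin that crosslinks actin at Z discs of fast fibres, had the widest gap of the 10 genes. Its deposited folds were 2.31 and 1.31. The log2 ratios were 1.21 and -0.39, with a mean of 0.41 ± 1.13 (SD, n = 2) and a limma interval of -0.98 to 1.81. Array 1 placed it among the high rows, at the 98.0 percentile, and array 2 placed it at the 10.1 percentile. Outside the central 95% of all rows were Myl1 and Actn3 on array 1 and Ckm on array 2, so no gene of the 10 was outside it on both.

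Of the 10 genes, 5 (Myh1, Mylpf, Myl1, Tnnt3 and Actn3) kept their sign from one deposited column to the other, although the Brdt-/- pool was in opposite dyes. Of all gene rows, 58.7% did. With array 2 not turned, the mean log2 ratio was 0.80 for Actn3, 0.62 for Mylpf and 0.32 for Myh1, and it was -0.66 for Myl1 and -0.49 for Tnnt3. In that orientation 3 of the 10 genes were above 0 on both arrays, against 23.3% of all rows, and 2 were below 0, against 35.4%. The median SD over the 2 arrays was 0.397 for the 10 genes and 0.198 for all gene rows.

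As a group, the 10 genes had a median log2 ratio of -0.01 on array 1 and -0.19 on array 2, and a median mean ratio of -0.17, beside 0.00 for all gene rows. Without Ckm the median mean ratio of the other 9 was -0.10. The median was 0.06 with array 2 not turned, so its sign rests on the orientation.

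Other genes of striated muscle gave the same mixed picture. These were 7 further lists with 74 genes in all, and the cardiac genes are given apart below. Of the 74, 19 (25.7%) were below 0 on both arrays and 13 (17.6%) were above 0 on both. On both arrays, 0 of the 74 were past 1.5-fold lower and 0 were past 1.5-fold higher, and 0 passed limma's adjusted test or an unadjusted p of 0.05. Their median log2 ratio was -0.09 on array 1 and 0.01 on array 2. The median mean ratio was 0.01, and it was -0.09 with array 2 not turned.

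The 8 other fast fibre genes came closest in composition to the group. Of these, 4 were below 0 on both arrays and 1 was above 0 on both, with medians of -0.25 and 0.05. Myh2 has been given above. Mybpc2, the fast myosin-binding protein C, was at -0.72 and 0.21. Myoz1, a Z disc partner of calcineurin, was at 1.06 and 0.14, and its relative Myoz3 was at -0.31 and -0.11. Tnnc2, the calcium-binding troponin subunit that works beside Tnni2 and Tnnt3, was at -0.10 and -0.05, near Tnni2.

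Of the 11 slow fibre genes, 2 were below 0 and 1 was above 0 on both arrays, with medians of -0.01 and -0.01. Tnni1, the slow counterpart of Tnni2, was at -1.45 and 0.43, low on array 1 only. Myh7, the slow heavy chain, was at 0.15 and 0.38, and Myl2, the slow and ventricular regulatory light chain, was at -0.14 and 0.57. Myoz2 was at 0.06 and -0.50. Of the 11, 8 had opposite signs on the arrays, and no test compared them with the fast fibre genes.

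Among 22 genes of the sarcomere scaffold and Z disc, 7 were below 0 and 3 above 0 on both arrays, with medians of -0.09 and 0.00. Ttn, the giant spring protein titin, was at -0.93 and -0.28. Xirp1 was at -0.25 and 1.14, and Myom2, an M line protein of fast fibres, was at 1.43 and -0.56. Actn2, the alpha-actinin shared by all striated fibres, was at -0.33 and -0.08, unlike Actn3 on array 1.

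Of 12 genes of excitation-contraction coupling, 2 were below 0 and 2 above 0 on both arrays. Sln, a small inhibitor of the calcium pump, was at 0.91 and -0.07, and Jph1, which holds the membrane junction of the triad together, was at 0.73 and 0.03. Srl was at 0.80 and -0.32 and Hrc at 0.04 and 0.37. Of 12 genes of muscle energy metabolism, the list nearest to the role of Ckm, 3 were below 0 and 4 above 0 on both arrays. Eno3, the muscle enolase, was at -0.70 and -0.02, and Cox8b, a muscle subunit of cytochrome oxidase, was at 0.59 and 0.17. Fbp2 was at 0.48 and 0.06. No gene of that list had a mean ratio as low as that of Ckm, the lowest being -0.36.

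Of 4 developmental muscle genes, 0 were below 0 and 1 (Myh8) was above 0 on both arrays. Of 5 genes of the neuromuscular junction, 1 was below 0 and 1 above 0 on both. Musk, the receptor kinase that organises the junction, was at -0.43 and -0.20, and Chrnb1, an acetylcholine receptor subunit, was at 0.34 and 0.25. Of 11 myogenic transcription factor genes, 10 had opposite signs and 1 (Vgll2) was above 0 on both, at 0.66 and 0.40, with limma's unadjusted p under 0.05 and its adjusted p above it.

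**Figure D5:**
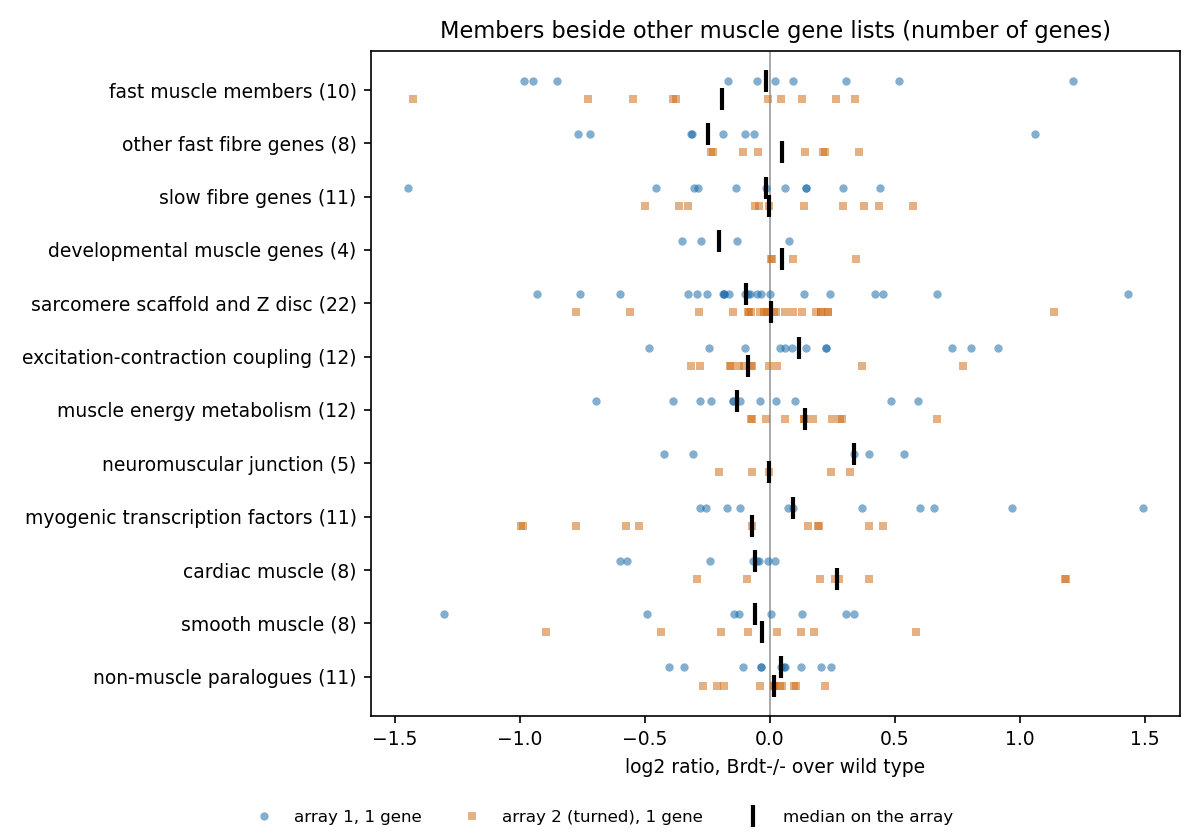
Log2 ratio of Brdt-/- over wild type (horizontal axis) for each gene of the 10 fast muscle genes and of 11 related lists, with blue circles for array 1, orange squares for array 2 and black ticks for the median on each array. Every list spans 0 on array 1, and the medians of all lists lie within 0.34 of 0 on both arrays.

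The non-muscle relatives of the group varied less. Of 11 such genes 2 were below 0 and 4 above 0 on both arrays, and their ratios ran from -0.41 to 0.25 on array 1 and from -0.27 to 0.22 on array 2. The 10 muscle genes ran from -0.98 to 1.21 and from -1.43 to 0.34. Actb and Actg1, the actins of all cells, were at 0.20 and -0.18 and at 0.12 and 0.04, and Myh10, a heavy chain of non-muscle myosin, was at -0.34 and -0.21. Of 8 cardiac genes, 1 was below 0 and 0 were above 0 on both arrays, with a median mean ratio of 0.09 that was -0.19 with array 2 not turned, Myl7 at -0.01 and 1.18 and Myh6 at -0.60 and -0.29. Of 8 smooth muscle genes, 1 was below 0 and 1 above 0 on both, with Lmod1 at -1.30 and 0.03 and Cnn1 at 0.30 and -0.89. Whether the wider range of the muscle genes goes with low signal was not tested, since intensities were not used here.

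Markers of other tissues that a dissection could include are given beside these values. Of 7 cartilage and bone genes, 4 were above 0 and 0 below 0 on both arrays, with medians of 0.75 and 0.32 and a median mean ratio of 0.72. That is the opposite side from Ckm in this orientation only: with array 2 not turned the median was 0.21 and Ckm was at 0.24. Past 1.5-fold higher on both arrays were 3 of them, beside 0.359% of all rows. These were Comp, a cartilage matrix gene, at 0.75 and 0.96, Alpl, a bone phosphatase gene, at 0.76 and 0.87, and Bglap2, an osteocalcin gene, at 1.56 and 1.14. The means of Comp and Alpl were -0.10 and -0.06, and that of Bglap2 was 0.21, with array 2 not turned. Of 5 red blood cell genes, 3 were above 0 on both, with medians of 0.12 and 1.16, and 1 of them (Hba-a2, an alpha globin gene, at 0.73 and 1.15) was past 1.5-fold higher on both. Their median mean ratio was 0.73, and it was -0.52 with array 2 not turned. Of 6 adipose genes, 1 was above 0 and 1 below 0 on both. Of 5 genes of Schwann cells and myelin, 1 was below 0 on both, with Prx, a Schwann cell scaffold, at 0.80 and -2.33. Of 5 keratin and epidermal genes, 3 were above 0 and 2 below 0 on both. Among 8 genes that define the anterior pituitary, 1 (Pomc, at -0.63 and -0.96, with a mean of 0.17 when array 2 is not turned) was below 0 and 1 (Fshb, at 0.29 and 0.52, with -0.12 likewise) was above 0 on both arrays. Limma's unadjusted p was under 0.05 for Bglap2 (0.00403), Alpl (0.0103), Comp (0.0103), Hba-a2 (0.0125) and Pomc (0.0166), beside 0.00722 for Ckm. Of all rows, 2.21% were under 0.05. No gene of these lists passed limma's adjusted threshold, and their part in the values of the muscle genes was not tested.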

How the data were processed

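The submitters' value table held 1 row per gene name and 1 column per array. The authors deposited signed linear folds between the channels of each array. The unit was read from the values, none of which lay between -1 and 1. No source used here states the scanner settings, background correction, normalization, probe summary or genome build. Log2 of the size of each fold, carrying the sign of the fold, gave the log2 ratio. Array 2, whose Brdt-/- pool carried Cy3, was turned. After 56 Agilent control rows were left out, limma 3.58.1 under R 4.3.3 tested 31784 gene rows against 0 (intercept only, 1 residual degree of freedom, Benjamini-Hochberg adjustment over all rows). The procedure was tested on simulated data. Each p-value and interval sets a mean against its error. That error joins the gene's own spread between 2 arrays of separate pools and opposite dyes with a variance borrowed from all rows. A dye term would leave no residual degree of freedom and was not fitted, so that spread includes any dye effect on the gene. The borrowed part had 2.33 prior degrees of freedom, more than the 1 residual degree of freedom.

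All 158 genes of the 18 lists had a row, 3 of them under an older symbol found in RefSeq's GRCm38.p6 table. That table also gave neighbours and chromosomes. The members and lists were chosen with earlier results of these data known. All 10 members were named, with up to 4 genes per other list by the size of the mean ratio. A gene that this rule names is not reported here. Family relatives of members were also named. Lsp1 and the rows below Ckm were named after their values were seen. Motifs were searched in the 250 bases before each start on both strands. The number of arrays limits the precision. Alternatives were the orientation, centring, scaling, each array alone, protein-coding rows, fold and p thresholds, and the ordinary statistic.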

Additional observations from a re-analysis of the deposited data

How the results depend on the processing

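Centring on the median, scaling to one spread and restriction to protein-coding rows kept the counts of the 10 genes, and the 20 member means under centring and scaling moved by less than 1 SD. With array 2 not turned, 0 genes were past 1.5-fold lower on both arrays and the members' median was 0.061. In that orientation 5 of the 10 means (Ckm, Acta1, Myh1, Mylpf and Pvalb) changed sign. These are the genes whose ratio was larger in size on array 2 than on array 1. On a single array, 5 to 6 genes were below 0, 4 to 5 above 0 and 2 to 3 past 1.5-fold lower, more by construction because the second array need not match, and the median ran from -0.19 to -0.015. The share of all rows on a single array is not given here, so these counts cannot be read against a background. At 2-fold, 0 genes were lower on both arrays, beside 20 of all 31784 rows. In place of 0 at the adjusted threshold, 1 member and 703 of all rows passed at an unadjusted p, and the ordinary one-sample statistic called 2 rows and 0 members. These were Ccdc107 and Kri1, chosen after their values were seen, whose ratios were identical on both arrays (-0.0075 and -0.091). The median without Ckm (-0.10) was added after seeing the data. A test on 1 array was not possible without residual degrees of freedom. The test already used the pairing, because each ratio sets a Brdt-/- pool against the wild-type pool of the same array. No other pairing was tried. Without intensities, genes near background could not be told from brighter ones.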

Other observations

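Of the 11 myogenic transcription factor genes, 10 had the same sign in each deposited column, against 58.7% of all gene rows, and Vgll2 (0.66 and -0.40) did not. On the log2 scale, Myod1, which starts the muscle programme, was at 1.49 and 0.99 as deposited, and Myog, which acts later in differentiation, was at 0.60 and 0.99. Mef2c, a partner of both, was at 0.97 and 0.57. Read as Brdt-/- over wild type with array 2 turned, their signs were opposite on the arrays, with means of 0.25 ± 1.75 for Myod1, -0.20 ± 1.13 for Myog and 0.20 ± 1.09 for Mef2c (SD, n = 2 each). Myf5 and Pax7, genes of muscle stem cells, were nearer 0, at -0.17 and -0.15 and at -0.25 and -0.19 as deposited. Myog, Myf5 and Pax7 were named after their values were seen. None passed limma's adjusted threshold.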
